A study of Rattus norvegicus with 9 samples.

Results

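The genes described here encode the enzymes of glycolysis, of gluconeogenesis and of the entry of fructose, sorbitol, glycerol and galactose into the same path. They were taken as a list of 37 symbols matched by name in the deposited table of 19367 genes, and all 37 were found. Of these, 34 had an FPKM (fragments per kilobase of transcript, scaled by the mapped reads) of at least 1 in at least 3 of 9 libraries and were tested. Hk3, Aldoc and Pfkfb1 lay below that level, and Fbp2 reached it only through the WKY libraries. The members and the other lists used here were chosen with earlier results of these data known. Their shares beside those of all genes are thus descriptions and not independent evidence.

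Whole kidney RNA was sequenced in 3 libraries of spontaneously hypertensive rats (SHR, an inbred hypertensive strain) given dapagliflozin by mouth at 10 mg/kg per day, 3 libraries of untreated SHR, and 3 libraries of normotensive Wistar-Kyoto rats (WKY). Dapagliflozin blocks SGLT2, the sodium-glucose carrier of the early proximal tubule. All rats were 3 months old at the start, and dosing lasted 8 weeks. Per the labels' protocols the untreated SHR and the WKY received distilled water by mouth, whereas another label field names saline, and the strain field names Wistar-Kyoto for every sample, so titles set the groups. The labels count 3 rats per group without tying each library to a rat. The p-values here thus reflect library-to-library spread, which may be technical.

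As background, glycolysis splits glucose to pyruvate, and lactate dehydrogenase interconverts pyruvate and lactate. Gluconeogenesis runs the path backwards with its own enzymes at the irreversible steps, and the kidney shares this role with the liver. Within the kidney, gluconeogenic and fructose enzymes belong mainly to the proximal tubule, while glycolytic capacity is greater in the distal nephron and collecting duct.

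Read totals were not given, so depth is unknown, and the FPKM of all genes summed to between 563643 and 589838 per library. The 37 genes held 1.64%, 2.05% and 1.76% of that sum in treated SHR libraries 1 to 3, 1.76%, 1.70% and 1.70% in untreated SHR, and 1.52%, 1.72% and 1.42% in WKY. The labelled tissue was checked against segment markers. The 11 proximal tubule markers averaged 5.17, 5.33 and 4.71 (log2 of FPKM + 1) in treated SHR libraries, 6.04, 5.85 and 5.43 in untreated SHR and 6.25, 6.18 and 6.20 in WKY. The 3 groups did not overlap on this list. No treated library stood apart throughout. Treated library 1 did so for the late proximal marker Slc7a13, at 839 FPKM against 110 and 196. Treated library 2 did so on the early proximal markers, averaging 6.42 against 5.34 and 5.37 in treated libraries 1 and 3. Treated library 3 did so for Sord, at 78.5 FPKM against 144 and 149. Calls that depend on treated library 1 are named with the value without it.

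Dapagliflozin-treated SHR were set against untreated SHR to ask what the drug changed within the strain. No gene passed an adjusted p of 0.05 in limma with Benjamini-Hochberg adjustment, 0 of 34 members and 0 of 13127 genes (0.0%). At an unadjusted p under 0.05 there were 14 of 34 members and 15.2% of all genes. The glycolytic and lactate genes had positive log2 changes in 18 of 20 cases with a median of 0.24, and the gluconeogenic and sugar entry genes had negative ones in 10 of 11 cases with a median of -0.41, beside a median of 0.04 over all genes. Libraries of the groups did not overlap for 17 of 34 members, 10 with all treated libraries higher and 7 with all lower, against 19.0% of all genes (12.6% higher, 6.44% lower). Without treated library 1, limma called 7 of 34 members, beside 6.32% of all genes. Hk1, Pfkm, Pgam2, Pkm and Ldha rose in that fit (3.1% of all genes rose), and Pklr and Khk fell (3.22% of all genes fell). When any other library was left out in turn, 0 members and 0 genes were called. Without treated library 3 the log2 changes of these 7 were 0.26 for Hk1, 0.47 for Pfkm, 0.91 for Pgam2, 0.43 for Pkm, 0.37 for Ldha, -0.76 for Pklr and -0.50 for Khk, with adjusted p between 0.719 and 0.737.

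Treated SHR were also set against WKY, a comparison in which strain and drug cannot be told apart. Here 17 of 34 members passed, beside 22.9% of all genes. Those that rose numbered 11 (16.8% of all genes rose): Hk2, Pfkl, Pfkm, Pfkp, Tpi1, Pgk1, Pgam2, Pkm, Ldha, Pck2 and Pfkfb3. Those that fell numbered 6 (6.09% of all genes fell): Pklr, Fbp2, Slc37a4, Khk, Gk and Galm. Fbp2 was tested only through its WKY values, which favours a fall, so its place in the counts of this paragraph is not support. The glycolytic and lactate genes had a median log2 change of 0.41 and the gluconeogenic and sugar entry genes one of -0.55, beside 0.11 over all genes. Groups did not overlap for 19 of 34 members, 13 higher and 6 lower in treated SHR, against 38.6% of all genes (28.2% higher, 10.4% lower). At an unadjusted p under 0.05 there were 22 of 34 members, beside 40.2% of all genes.

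The 17 calls depended on single libraries. Members called numbered 20 without treated library 1 (36.5% of all genes), 9 without treated library 2 (8.2%) and 7 without treated library 3 (7.2%). They numbered 11 without each of untreated SHR libraries 1, 2 and 3 in turn (15.5%, 17.2% and 18.5%). They numbered 5 without WKY library 1 (6.14%), 18 without WKY library 2 (25.0%) and 5 without WKY library 3 (4.52%). Pfkl, Pgam2, Pkm and Ldha were called in all 9 of these fits. Without treated library 1, Aldoa (log2 change 0.54, adjusted p = 0.0333, limma) and Ldhb (0.80, adjusted p = 0.0291) also rose, Sord (-0.68, adjusted p = 0.0494) also fell, and no call was lost. Aldoa and Ldhb were likewise called without WKY library 2. Hk2, Pfkm, Pfkp, Tpi1, Pgk1, Pklr, Pck2 and Khk were no longer called without treated library 2 or without treated library 3. Pfkfb3 and Slc37a4 were also no longer called without treated library 3. These losses were not limited to the treated libraries. Of the 9 fits, Hk2 and Pfkp were called in 5. Pfkm, Tpi1, Pgk1, Pklr and Pck2 were called in 2, without treated library 1 and without WKY library 2. Khk was called in 1, without treated library 1. Under median-of-ratios scaling the median of all genes moved to -0.01, and 14 members passed, 8 higher and 6 lower, beside 20.5% of all genes. That scaling also moved the share of higher genes among those called to 53.6%, against 73.5% as deposited, and quantile normalization moved it to 59.9%.

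Untreated SHR were set against WKY to ask how the strains differ. Of 34 members 1 passed, Pfkl, which rose, beside 2.96% of all genes (1.84% rose and 1.12% fell). At an unadjusted p under 0.05 there were 4 of 34 members, beside 19.5% of all genes. Groups did not overlap for 13 of 34 members, 8 higher and 5 lower in untreated SHR, against 28.4% of all genes (20.3% higher, 8.11% lower). Fbp2, tested only through its WKY values, was among the 5 lower. The 3 comparisons share libraries, so a high value in a shared group enters both comparisons that use it.

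**Figure D1:**
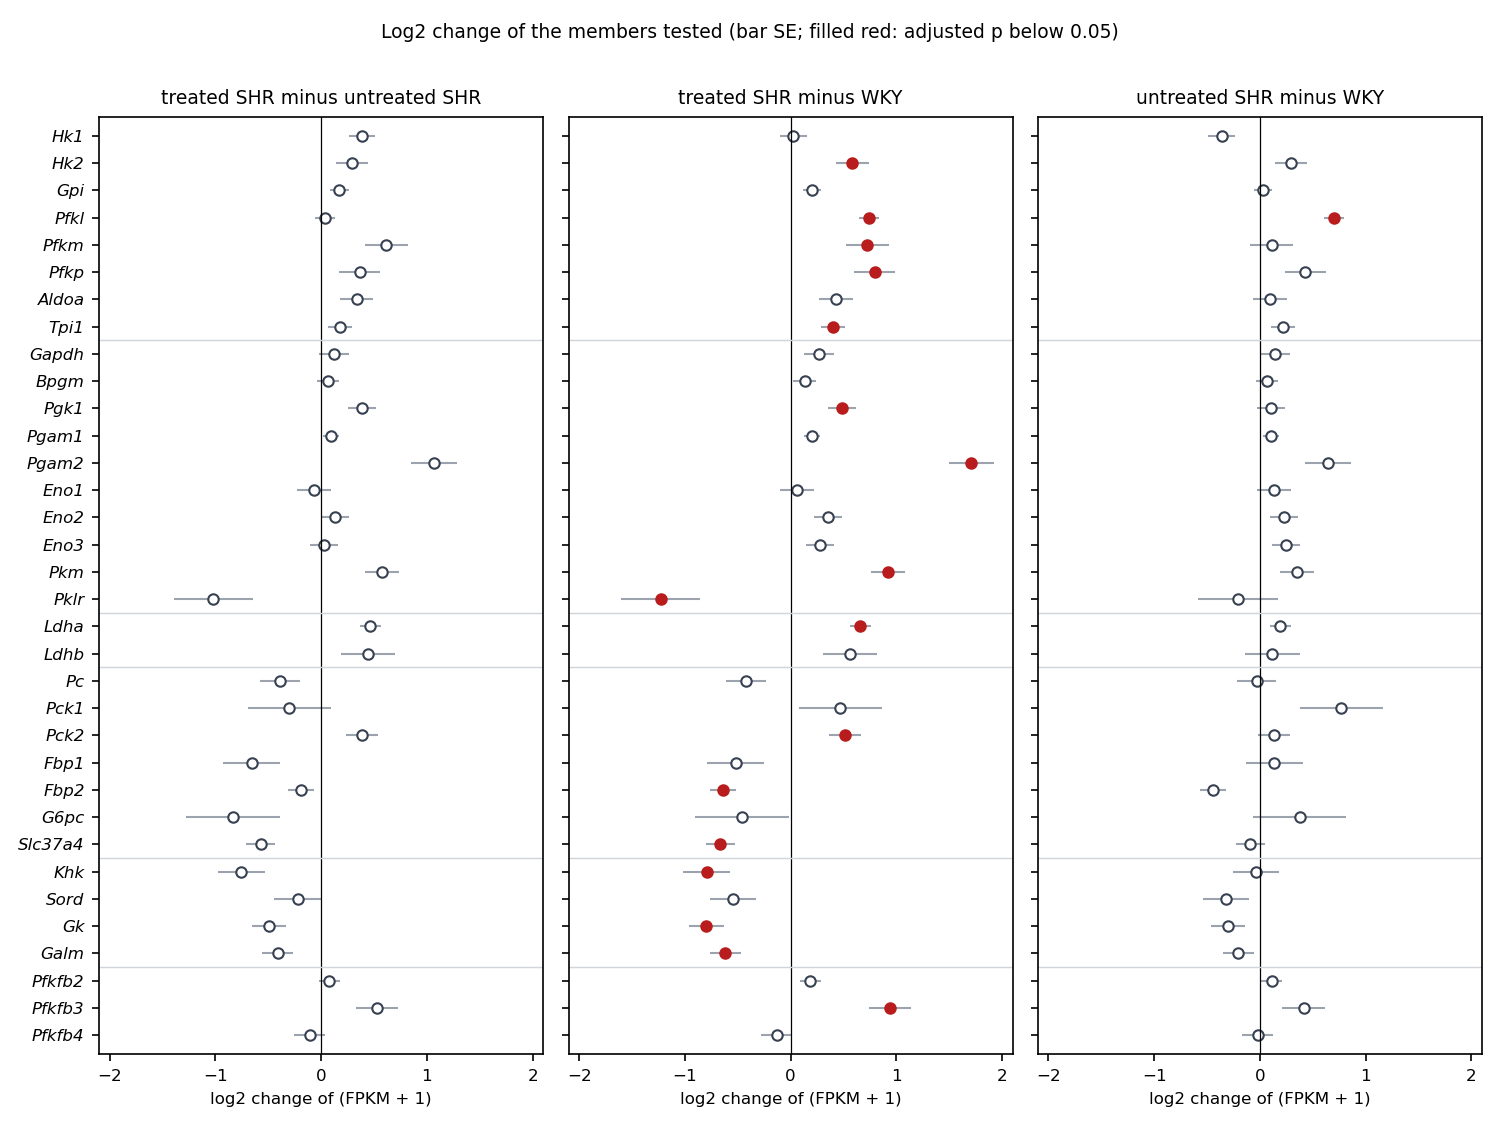
Log2 change of FPKM + 1 for the 34 tested genes (rows, ordered by role) in treated SHR minus untreated SHR, treated SHR minus WKY and untreated SHR minus WKY, with bars for the standard error and filled points for an adjusted p under 0.05. Filled points number 0, 17 and 1 in the 3 panels, and Pgam2 lies farthest to the right and Pklr farthest to the left in the first and second panels.

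Levels spanned a wide range. Per length, and averaged over the 9 libraries, Gapdh was highest at 2611 FPKM, followed by Eno1 at 1123, Aldoa at 1037, Pck1 at 721 and Fbp1 at 689. The lowest were Hk3 at 0.449, Aldoc at 0.423 and Pfkfb1 at 0.236 FPKM. Hk1, the first enzyme of glycolysis in most tissues, averaged 64.2 FPKM and exceeded Hk2 at 1.24. Reads of 50 bases from Gapdh, Eno1, Aldoa, Tpi1, Pgk1, Pgam1, Pkm and Ldha can also match near-identical pseudogene copies, so their levels are uncertain to that extent.

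Promoters are shown for the 4 genes called in all 9 of the fits that leave out a library (Pfkl, Pgam2, Pkm and Ldha), and for Pklr, the partner isozyme of Pkm, which was called lower in treated SHR against WKY. Each is the 250 bases before the annotated start on the GRCr8 assembly in RefSeq, whose coordinates differ from those of the authors' build, and capitals mark one motif per sequence. Of the members, 34 had a promoter in RefSeq. Capitals mark the GC box GGGCGG on either strand in Pfkl (chr20:10663715-10663964, plus strand) and Pkm (chr8:68953385-68953634, plus strand), and CTATTTTTA, one spelling of a MEF2 motif, in Pgam2 (chr14:84897875-84898124, minus strand). They mark the hypoxia response core, ACGTG or GCGTG, in Ldha (chr1:106507842-106508091, plus strand) and TATAAA in Pklr (chr2:176841014-176841263, plus strand).
Pfkl: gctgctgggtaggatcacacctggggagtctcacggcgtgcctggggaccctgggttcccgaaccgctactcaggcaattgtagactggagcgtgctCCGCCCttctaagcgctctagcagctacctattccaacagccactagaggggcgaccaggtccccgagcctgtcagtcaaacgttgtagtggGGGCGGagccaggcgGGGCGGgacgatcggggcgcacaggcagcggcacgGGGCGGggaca
Pgam2: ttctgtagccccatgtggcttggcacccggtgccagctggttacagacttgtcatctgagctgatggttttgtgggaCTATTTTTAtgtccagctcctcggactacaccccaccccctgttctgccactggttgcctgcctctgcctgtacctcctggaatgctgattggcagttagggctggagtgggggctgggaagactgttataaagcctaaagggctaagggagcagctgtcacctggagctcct
Pkm: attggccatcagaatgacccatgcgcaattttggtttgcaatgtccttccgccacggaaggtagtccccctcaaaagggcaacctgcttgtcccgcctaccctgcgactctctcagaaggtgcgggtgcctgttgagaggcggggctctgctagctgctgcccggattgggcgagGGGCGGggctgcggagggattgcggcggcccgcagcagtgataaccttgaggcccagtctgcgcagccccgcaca
Ldha: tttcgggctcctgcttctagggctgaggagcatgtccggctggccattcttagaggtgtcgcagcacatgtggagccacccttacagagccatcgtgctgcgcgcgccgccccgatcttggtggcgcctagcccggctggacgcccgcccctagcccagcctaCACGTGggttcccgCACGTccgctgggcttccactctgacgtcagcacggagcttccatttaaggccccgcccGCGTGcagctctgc
Pklr: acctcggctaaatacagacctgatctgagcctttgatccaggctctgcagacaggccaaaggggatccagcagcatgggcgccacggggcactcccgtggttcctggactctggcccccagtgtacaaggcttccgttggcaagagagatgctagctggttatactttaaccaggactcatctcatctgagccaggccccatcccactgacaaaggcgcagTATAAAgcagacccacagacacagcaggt

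Pfkl held 4 GC boxes in that window, and Pkm held 1, which starts 75 bases before the annotated start. Ldha also held 3 GC boxes, not in capitals. Of all 27457 promoters of the same length 32.4% held a GC box, as did 17 of the 34 member promoters. Ldha held 4 matches to the hypoxia response core, of which a pair overlap as one palindrome read on both strands. Pfkl also held 2 matches to the hypoxia response core, not in capitals. That core was present in 37.9% of all promoters and in 17 of 34 member promoters. The MEF2 spelling of Pgam2, 173 bases before the start, was present in 0.452% of all promoters and in no other member promoter. Only that spelling was searched, and it is longer than the other motifs, so its share cannot be set beside theirs. TATAAA was present in 13.1% of all promoters and in G6pc, Gapdh, Pgam2 and Pklr among the members. GTTAAT, which is part of the site of the proximal tubule factor HNF1, was present in 6.46% of all promoters and among the members in G6pc and Pck1. A match describes these letters and is not a binding site. The searches were exact, so a promoter without a match may hold another spelling of the same site.

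Phosphofructokinase commits glucose to glycolysis, and its liver-type subunit was the only member called between untreated SHR and WKY. Pfkl had 34.5, 33.7 and 29.4 FPKM in treated SHR libraries 1 to 3, 29.9, 31.3 and 34.0 FPKM in untreated SHR and 21.1, 17.6 and 18.7 FPKM in WKY. All 6 SHR libraries lay above all WKY libraries, and the treated and untreated ranges overlapped. The log2 change was 0.70 (SE 0.09, adjusted p = 0.00547, limma) for untreated SHR against WKY and 0.74 (adjusted p = 0.00314) for treated SHR against WKY. Treated SHR minus untreated SHR gave 0.03 (adjusted p = 0.879), and the sign of that value turned under median-of-ratios scaling and without treated library 1. With the mean of the proximal tubule markers as a covariate, the untreated SHR against WKY change was 0.73 with an adjusted p of 0.06.

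The muscle-type and platelet-type subunits followed another order. Pfkm had 44.7, 62.6 and 72.2 FPKM in treated SHR, 40.25, 36.0 and 37.7 in untreated SHR and 29.1, 46.2 and 32.05 in WKY. All treated libraries were above all untreated SHR libraries, and WKY library 2 exceeded the lowest treated library. Pfkm rose in treated SHR against WKY by 0.73 on the log2 scale (SE 0.20, adjusted p = 0.0345, limma). Pfkm kept that call in 2 of the 9 fits that leave out a library. Its change against untreated SHR was 0.62 (adjusted p = 0.285). For that change the adjusted p was 0.041, 0.439 and 0.719 without treated library 1, 2 or 3. Pfkp had 23.1, 29.95 and 39.5 FPKM in treated SHR, 26.0, 23.1 and 20.8 in untreated SHR and 14.1, 20.3 and 17.0 in WKY. Every SHR library, treated or not, lay above every WKY library. Pfkp rose in treated SHR against WKY by 0.79 (adjusted p = 0.0237), and untreated SHR minus WKY was 0.43 (adjusted p = 0.263).

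Hexokinase traps glucose in the cell. Hk1 had 59.7, 68.0 and 84.2 FPKM in treated SHR, 51.5, 50.5 and 57.9 FPKM in untreated SHR and 73.5, 63.1 and 69.7 FPKM in WKY. Untreated SHR libraries were the lowest, below all 3 of each other group, and treated SHR overlapped WKY. Treated minus untreated SHR was 0.39 on the log2 scale (SE 0.13, adjusted p = 0.285, limma), and untreated SHR minus WKY was -0.36 (adjusted p = 0.173). The 0.39 became 0.50, 0.41 and 0.26 without treated library 1, 2 or 3, with adjusted p of 0.0458, 0.422 and 0.719. Hk2, the insulin-responsive form, had 1.60, 1.66 and 1.83 FPKM in treated SHR, 1.25, 1.32 and 1.05 in untreated SHR and 0.46, 0.89 and 1.10 in WKY. It rose in treated SHR against WKY by 0.59 (adjusted p = 0.029), a difference on low values that the added 1 makes smaller. Hk3, a hexokinase of blood cells, was 0.18 to 0.47 FPKM in treated SHR, 0.03 to 0.41 in untreated SHR and 0.47 to 1.10 in WKY, and was not tested.

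Aldoa, the aldolase of muscle and most other tissues, had 1051, 1282 and 1346 FPKM in treated SHR, 988, 923 and 990 FPKM in untreated SHR and 752, 1111 and 888 FPKM in WKY. All treated libraries exceeded all untreated SHR libraries, while WKY library 2 fell within the treated range. Its log2 change in treated SHR was 0.33 against untreated SHR (adjusted p = 0.352, limma) and 0.43 against WKY (adjusted p = 0.0804). The 0.43 became 0.54, 0.39 and 0.36 without treated library 1, 2 or 3, with adjusted p of 0.0333, 0.196 and 0.222. Aldoa was also called against WKY without WKY library 2. Tpi1, which interconverts the triose phosphates, had 472, 547 and 569 FPKM in treated SHR, 475, 471 and 450 FPKM in untreated SHR and 369, 458 and 380 FPKM in WKY. It rose in treated SHR against WKY by 0.40 (adjusted p = 0.0374). Tpi1 kept that call in 2 of the 9 fits that leave out a library. Gpi, which converts glucose phosphate to fructose phosphate, averaged 329 ± 20.4 FPKM in treated SHR, 292 ± 5.33 in untreated SHR and 286 ± 23.1 in WKY (SD, n = 3 each).

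Among the later enzymes the largest change was in Pgam2, the muscle-type phosphoglycerate mutase. Pgam2 had 44.2, 56.7 and 70.2 FPKM in treated SHR, 24.6, 24.5 and 29.9 FPKM in untreated SHR and 12.95, 22.5 and 15.2 FPKM in WKY. The 3 groups did not overlap at any pair. The ratio of means was 3.38 for treated SHR over WKY, 2.17 for treated over untreated SHR and 1.56 for untreated SHR over WKY. Pgam2 rose in treated SHR against WKY by 1.71 on the log2 scale (SE 0.21, adjusted p = 0.00282, limma). Treated minus untreated SHR was 1.07 (adjusted p = 0.281), and untreated SHR minus WKY was 0.64 (adjusted p = 0.161). The 1.07 became 1.24, 1.06 and 0.91 without treated library 1, 2 or 3, with adjusted p of 0.0294, 0.348 and 0.719. Skeletal muscle markers were near 0 in all libraries: the summed FPKM of Ckm, Acta1, Myh4, Tnnt3 and Myl1 was 0.63 to 2.34 in treated SHR, 0.36 to 1.09 in untreated SHR and 0.59 to 1.66 in WKY. The broadly expressed partner Pgam1 averaged 234 ± 14.7 FPKM in treated SHR, 219 ± 8.26 in untreated SHR and 203 ± 4.98 in WKY.

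Pyruvate kinase makes pyruvate at the last step, and its isozymes moved in opposite directions in treated SHR against WKY. Pkm, the form of most tissues, had 252, 314 and 379 FPKM in treated SHR, 194, 203 and 229 FPKM in untreated SHR and 145, 194 and 156 FPKM in WKY. The treated libraries lay above all others. Pkm rose in treated SHR against WKY by 0.92 on the log2 scale (SE 0.16, adjusted p = 0.00996, limma). Its change against untreated SHR was 0.58 (adjusted p = 0.281). That change became 0.73, 0.57 and 0.43 without treated library 1, 2 or 3, with adjusted p of 0.0358, 0.419 and 0.719. Pklr, the liver and red cell form, which the proximal tubule also uses, had 51.3, 17.6 and 17.05 FPKM in treated SHR, 47.9, 63.2 and 45.5 FPKM in untreated SHR and 69.8, 46.7 and 66.0 FPKM in WKY. Treated library 1 lay within the untreated SHR range, and treated libraries 2 and 3 lay below every other library. Pklr fell in treated SHR against WKY by 1.23 (SE 0.38, adjusted p = 0.0468), and treated minus untreated SHR was -1.02 (adjusted p = 0.295). The Pklr call against WKY held in 2 of the 9 fits that leave out a library. The -1.02 became -1.52, -0.78 and -0.76 without treated library 1, 2 or 3, with adjusted p of 0.0219, 0.498 and 0.737.

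The remaining lower enzymes changed less. Pgk1, which makes ATP from bisphosphoglycerate, had 369, 460 and 467 FPKM in treated SHR, 343, 321 and 324 FPKM in untreated SHR and 267, 361 and 296 FPKM in WKY. Every treated library was above every other library. Pgk1 rose in treated SHR against WKY by 0.49 (SE 0.13, adjusted p = 0.0333, limma), and treated minus untreated SHR was 0.38 (adjusted p = 0.286). The call against WKY held in 2 of the 9 fits that leave out a library. Gapdh, which oxidises glyceraldehyde phosphate and is often used as a reference gene, had 2640, 3129 and 2775 FPKM in treated SHR, 2654, 2650 and 2531 FPKM in untreated SHR and 2143, 2683 and 2292 FPKM in WKY. The ranges overlapped, and the log2 change was 0.27 for treated SHR against WKY (adjusted p = 0.189) and 0.12 against untreated SHR (adjusted p = 0.694). Eno1, the ubiquitous enolase, averaged 1120 ± 134 FPKM in treated SHR, 1167 ± 45.1 in untreated SHR and 1082 ± 232 in WKY. Eno2 and Eno3, the neuronal and muscle enolases, stayed between 2.37 and 4.52 FPKM in all libraries. Bpgm, which makes the bisphosphoglycerate of red cells, averaged 30.1 ± 1.80 FPKM in treated SHR, 28.8 ± 1.25 in untreated SHR and 27.6 ± 3.87 in WKY.

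Lactate dehydrogenase had an A and a B subunit at unequal levels. Ldha, the subunit tied to lactate production, had 207, 234 and 270 FPKM in treated SHR, 169, 166 and 177 FPKM in untreated SHR and 143, 153 and 152 FPKM in WKY. The 3 groups did not overlap at any pair. Ldha rose in treated SHR against WKY by 0.66 on the log2 scale (SE 0.10, adjusted p = 0.00622, limma). Treated minus untreated SHR was 0.47 (adjusted p = 0.281). That change became 0.56, 0.47 and 0.37 without treated library 1, 2 or 3, with adjusted p of 0.0268, 0.363 and 0.719. Ldhb, the subunit tied to lactate use, had 516, 810 and 887 FPKM in treated SHR, 580, 538 and 470 FPKM in untreated SHR and 362, 673 and 471 FPKM in WKY. Treated library 1 lay within the other groups' ranges, and the change against WKY was 0.56 (adjusted p = 0.137). The 0.56 became 0.80, 0.48 and 0.41 without treated library 1, 2 or 3, with adjusted p of 0.0291, 0.299 and 0.365. Ldhb was also called against WKY without WKY library 2. Treated minus untreated SHR was 0.45 (adjusted p = 0.413; 0.68 with adjusted p = 0.107 without treated library 1). The share of Ldha in the summed FPKM of both was 24.8% ± 3.34 in treated SHR, 24.5% ± 2.55 in untreated SHR and 23.7% ± 4.93 in WKY (SD, n = 3 each).

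**Figure D2:**
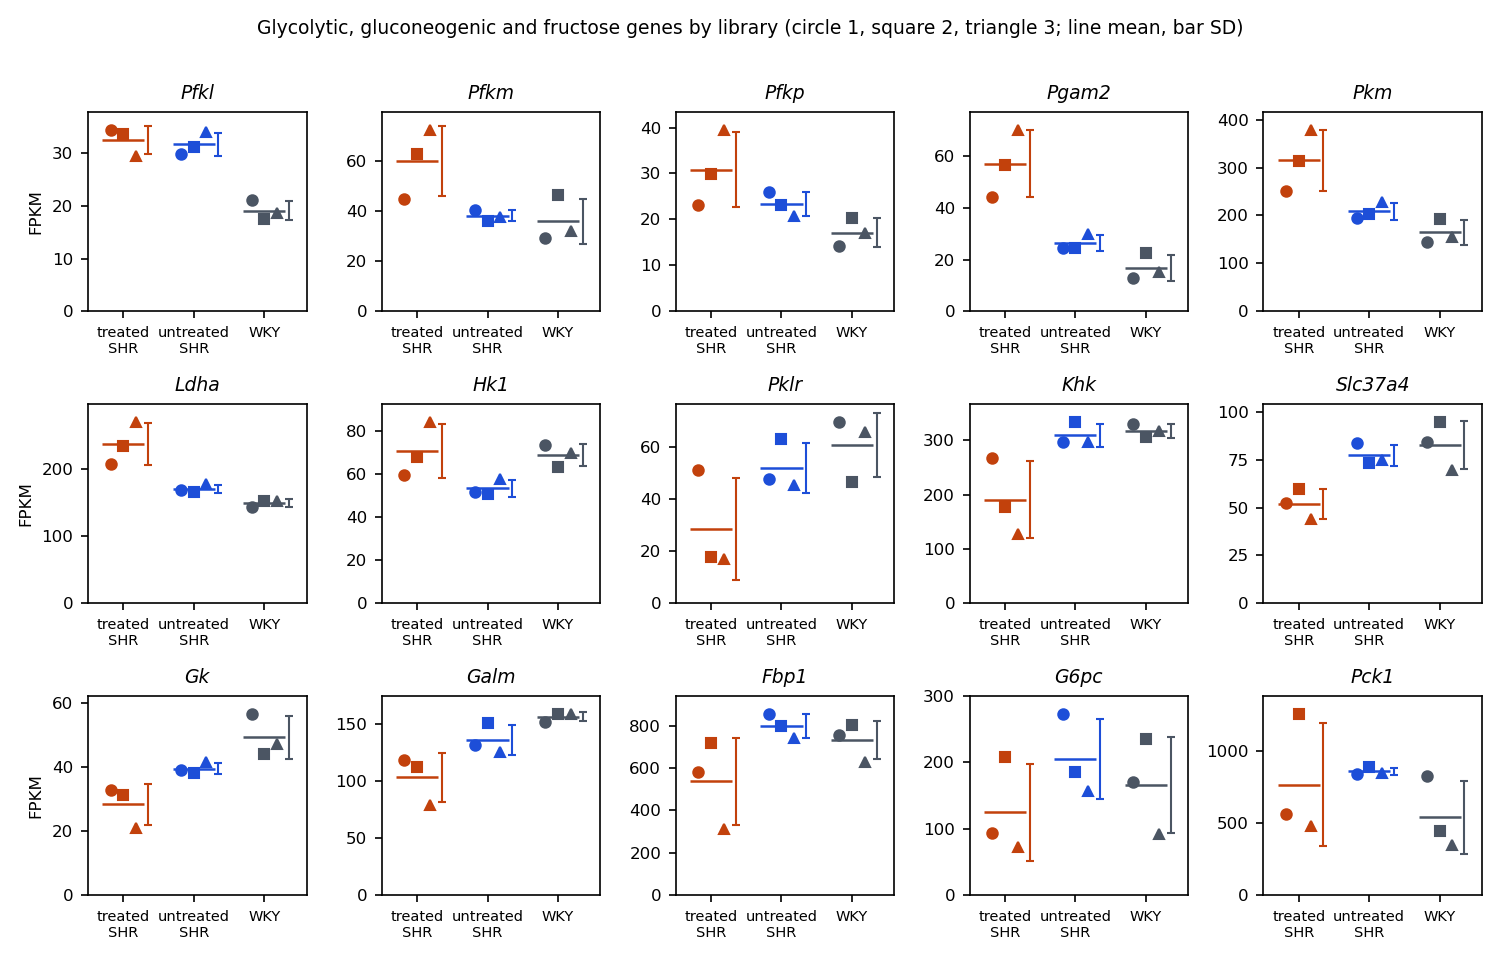
FPKM of 15 genes by library in treated SHR, untreated SHR and WKY, with each axis starting at 0 (circle, square and triangle for libraries 1, 2 and 3, line for the mean, bar for the SD). Treated SHR libraries lie above all others for Pgam2, Pkm and Ldha, and treated library 1 stands apart from libraries 2 and 3 for Pklr.

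The gluconeogenic enzymes differed less cleanly and showed large spread within groups. Slc37a4, the carrier that brings glucose phosphate to the phosphatase, had 52.5, 59.5 and 43.8 FPKM in treated SHR, 83.7, 73.5 and 74.6 FPKM in untreated SHR and 84.1, 94.9 and 69.65 FPKM in WKY. All treated libraries lay below all others. It fell in treated SHR against WKY by 0.66 on the log2 scale (SE 0.14, adjusted p = 0.016, limma), and treated minus untreated SHR was -0.57 (adjusted p = 0.281). G6pc, the phosphatase that releases glucose, had 92.7, 209 and 71.9 FPKM in treated SHR, 273, 186 and 157 FPKM in untreated SHR and 170, 235 and 91.3 FPKM in WKY. Its ranges overlapped in all comparisons, and the log2 change of treated against untreated SHR was -0.83 (SE 0.44, adjusted p = 0.381), with -1.28 without treated library 2 and -0.52 without treated library 3. Fbp1, which removes phosphate from fructose bisphosphate, had 582, 717 and 311 FPKM in treated SHR, 857, 799 and 744 FPKM in untreated SHR and 758, 805 and 631 FPKM in WKY. All treated libraries lay below all untreated SHR libraries, with a change of -0.66 (SE 0.27, adjusted p = 0.312; -0.31 without treated library 3), and treated library 2 exceeded WKY library 3.

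Pck1, the cytosolic enzyme that makes phosphoenolpyruvate, had 561, 1259 and 478 FPKM in treated SHR, 842, 887 and 845 FPKM in untreated SHR and 827, 442 and 347 FPKM in WKY. Treated libraries 1 and 3 lay below and treated library 2 above every untreated SHR library. Treated minus untreated SHR was -0.30 (SE 0.39, adjusted p = 0.732, limma; -0.73 without treated library 2 and -0.03 without treated library 3) and untreated SHR minus WKY was 0.77 (adjusted p = 0.314). Pck2, its mitochondrial partner, had 18.5, 25.2 and 26.0 FPKM in treated SHR, 16.4, 16.9 and 18.9 FPKM in untreated SHR and 13.6, 19.05 and 15.1 FPKM in WKY. It rose in treated SHR against WKY by 0.51 (adjusted p = 0.0424), the only gluconeogenic member with a called rise. Pck2 kept that call in 2 of the 9 fits that leave out a library. Pc, which makes oxaloacetate from pyruvate, had 86.2, 83.0 and 55.5 FPKM in treated SHR, 93.45, 89.5 and 108 FPKM in untreated SHR and 114, 104 and 80.6 FPKM in WKY. All treated libraries lay below all untreated SHR libraries, with a change of -0.39 (adjusted p = 0.352; -0.19 without treated library 3). Fbp2, the muscle-type bisphosphatase, had 0.56, 0.54 and 0.35 FPKM in treated SHR, 0.67, 0.79 and 0.62 FPKM in untreated SHR and 1.27, 1.33 and 1.31 FPKM in WKY. It fell in treated SHR against WKY by 0.64 (adjusted p = 0.012), but it was tested because of its WKY values alone.

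Fructose and glycerol enter below the first steps of glycolysis. Khk, ketohexokinase, which phosphorylates fructose, had 267, 178 and 128 FPKM in treated SHR, 297, 334 and 297 FPKM in untreated SHR and 331, 306 and 316 FPKM in WKY. All treated libraries lay below all others. Khk fell in treated SHR against WKY by 0.79 on the log2 scale (SE 0.22, adjusted p = 0.0345, limma). Khk kept that call in 1 of the 9 fits that leave out a library. Treated minus untreated SHR was -0.76 (adjusted p = 0.281). That change became -1.03, -0.74 and -0.50 without treated library 1, 2 or 3, with adjusted p of 0.0224, 0.421 and 0.719. Gk, glycerol kinase, had 32.8, 31.2 and 20.8 FPKM in treated SHR, 38.9, 38.1 and 41.5 FPKM in untreated SHR and 56.6, 44.0 and 47.0 FPKM in WKY. The 3 groups did not overlap at any pair. Gk fell in treated SHR against WKY by 0.80 (SE 0.16, adjusted p = 0.0154).

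Galm, which interconverts the anomers of galactose and glucose, had 119, 112 and 78.9 FPKM in treated SHR, 132, 151 and 125 FPKM in untreated SHR and 152, 159 and 158 FPKM in WKY. The 3 groups did not overlap, and Galm fell in treated SHR against WKY by 0.62 (SE 0.15, adjusted p = 0.0221, limma). Sord, sorbitol dehydrogenase, which makes fructose from sorbitol, had 144, 149 and 78.5 FPKM in treated SHR, 143, 138 and 137 FPKM in untreated SHR and 190, 181 and 154 FPKM in WKY. Treated library 3 was the lowest of all, and treated libraries 1 and 2 were the highest of the SHR libraries. Its change was -0.22 against untreated SHR (adjusted p = 0.633; 0.07 without treated library 3). Against WKY it was -0.55 (adjusted p = 0.0971; -0.68 with adjusted p = 0.0494 without treated library 1 and -0.25 without treated library 3).

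The bifunctional enzymes of the PFKFB family set the level of a fructose bisphosphate that activates phosphofructokinase. Pfkfb3, the form with the highest kinase over phosphatase activity, had 7.66, 7.74 and 11.2 FPKM in treated SHR, 7.12, 5.90 and 4.51 FPKM in untreated SHR and 4.13, 5.11 and 3.18 FPKM in WKY. All treated libraries lay above all others. It rose in treated SHR against WKY by 0.94 (SE 0.20, adjusted p = 0.017, limma), and treated minus untreated SHR was 0.53 (adjusted p = 0.295). Pfkfb2, the heart form, averaged 10.7 ± 1.36 FPKM in treated SHR, 10.1 ± 0.379 in untreated SHR and 9.23 ± 0.525 in WKY. Pfkfb4 averaged 12.7 ± 2.76 FPKM in treated SHR, 13.6 ± 0.950 in untreated SHR and 13.9 ± 1.85 in WKY. Pfkfb1, the liver form, stayed between 0.16 and 0.31 FPKM in all libraries.

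The isozymes of a step can be set side by side because FPKM is per length. Pkm held 83.1%, 94.7% and 95.7% of pyruvate kinase FPKM in treated SHR, 80.2%, 76.3% and 83.4% in untreated SHR and 67.4%, 80.6% and 70.2% in WKY. Treated libraries 2 and 3 lay above all others, and treated library 1 lay within the untreated SHR range. Pgam2 held 16.5%, 18.5% and 23.6% of phosphoglycerate mutase FPKM in treated SHR, 10.4%, 9.75% and 12.1% in untreated SHR and 5.95%, 9.81% and 7.14% in WKY. The treated libraries did not overlap the others on the Pgam2 share. The 3 phosphofructokinase subunits summed to 102, 126 and 141 FPKM in treated SHR, 96.1, 90.3 and 92.5 in untreated SHR and 64.3, 84.0 and 67.7 in WKY. All 3 groups were apart on that sum.

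**Figure D3:**
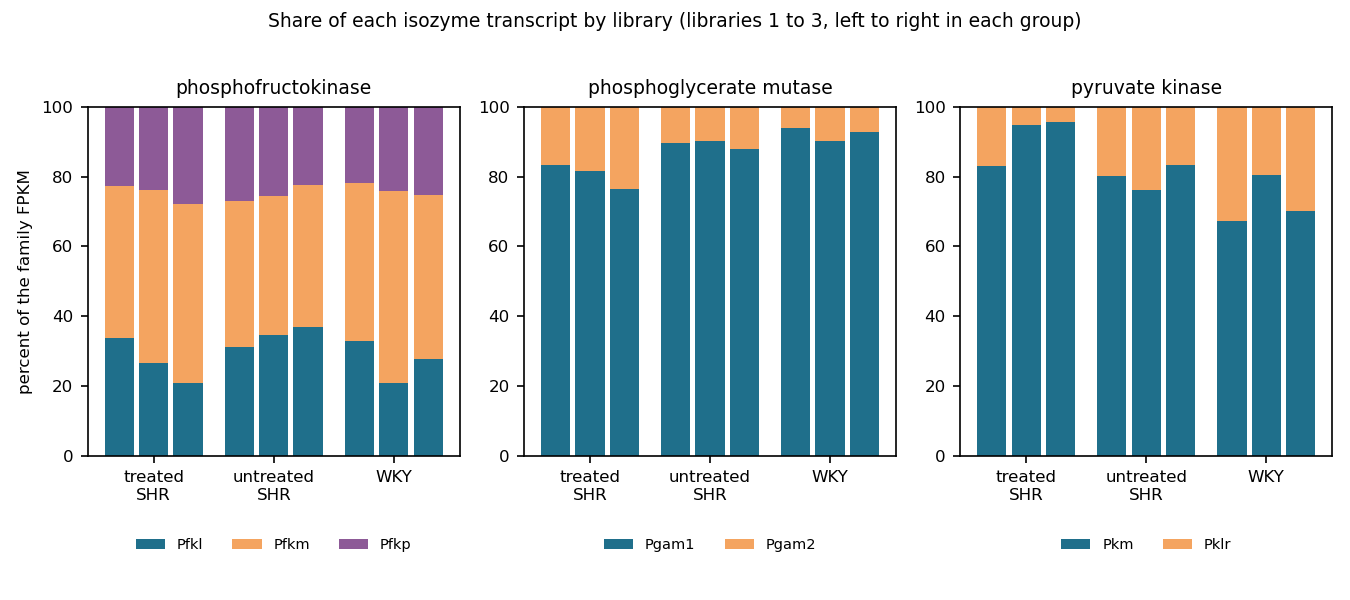
Percent of the summed FPKM of each enzyme family held by each isozyme, 1 bar per library, in treated SHR, untreated SHR and WKY. The Pkm share reaches 95.7% and the Pgam2 share 23.6% in treated library 3.

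Fbp1 and Pfkl encode opposing enzymes at the fructose phosphate step. The log2 ratio of Fbp1 over Pfkl was 4.08, 4.41 and 3.40 in treated SHR, 4.84, 4.68 and 4.45 in untreated SHR and 5.17, 5.52 and 5.08 in WKY. Pfkl held a mean of 27.1%, 34.1% and 27.1% of phosphofructokinase FPKM in treated SHR, untreated SHR and WKY. It also differed between the strains, so this RNA ratio is not a balance of the enzymes. The groups did not overlap, and no test was run on the ratio. Pck1 over Pck2, at a log2 ratio of 4.92, 5.64 and 4.20 in treated SHR, 5.68, 5.71 and 5.48 in untreated SHR and 5.92, 4.54 and 4.52 in WKY, was wide within treated SHR and WKY.

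Markers of nephron segments also differed between groups, and not all lists past the proximal tubule moved the same way. The 4 thick ascending limb markers had a median log2 change of -0.41 in treated SHR against untreated SHR and against WKY. In each comparison 3 of these 4 were negative and 0 were called. Podocyte markers had medians of 0.07 and 0.81 in the same comparisons, with 1 called against WKY. All 11 proximal tubule markers had negative log2 changes in treated against untreated SHR with 0 called, and in treated SHR against WKY all 11 were negative and Cubn and Slc7a13 fell. The 4 collecting duct principal cell markers averaged 7.08, 7.40 and 7.92 (log2 of FPKM + 1) in treated SHR, 6.67, 6.64 and 6.86 in untreated SHR and 5.37, 6.15 and 5.64 in WKY. The 4 intercalated cell markers averaged 7.60, 7.97 and 8.34 in treated SHR, 7.20, 7.16 and 7.72 in untreated SHR and 6.60, 7.01 and 6.56 in WKY. All 4 principal cell markers and all 4 intercalated cell markers rose in treated SHR against WKY. The late proximal markers averaged 4.88, 3.44 and 3.54 in treated SHR, 4.57, 4.69 and 4.47 in untreated SHR and 5.73, 4.54 and 5.21 in WKY, with treated library 1 above treated libraries 2 and 3, as for Pklr. In whole tissue, fewer cells of a type and less RNA per cell cannot be told apart.

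With the mean of the 11 proximal markers as a covariate, 0 members were called in any comparison, beside 0.114% of all genes in treated SHR against WKY and 0.747% in untreated SHR against WKY. In that fit the log2 change of treated SHR against WKY was 0.98 for Pgam2, 0.92 for Pfkfb3, 0.80 for Pfkl, 0.58 for Hk2, 0.51 for Pfkp, 0.40 for Pgk1, 0.39 for Pfkm, 0.32 for Tpi1, Ldha and Pkm, and 0.13 for Pck2. It was -0.57 for Pklr, -0.38 for Fbp2, -0.26 for Gk, -0.16 for Slc37a4, -0.11 for Khk and 0.016 for Galm. The values of Pfkl, Pfkfb3 and Hk2 were close to those without the covariate, and the adjusted p was between 0.958 and 1.0 for all 17. The groups do not overlap on the covariate, so group and segment markers cannot be told apart there, and the part of segment composition in these results was not tested otherwise.

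**Figure D4:**
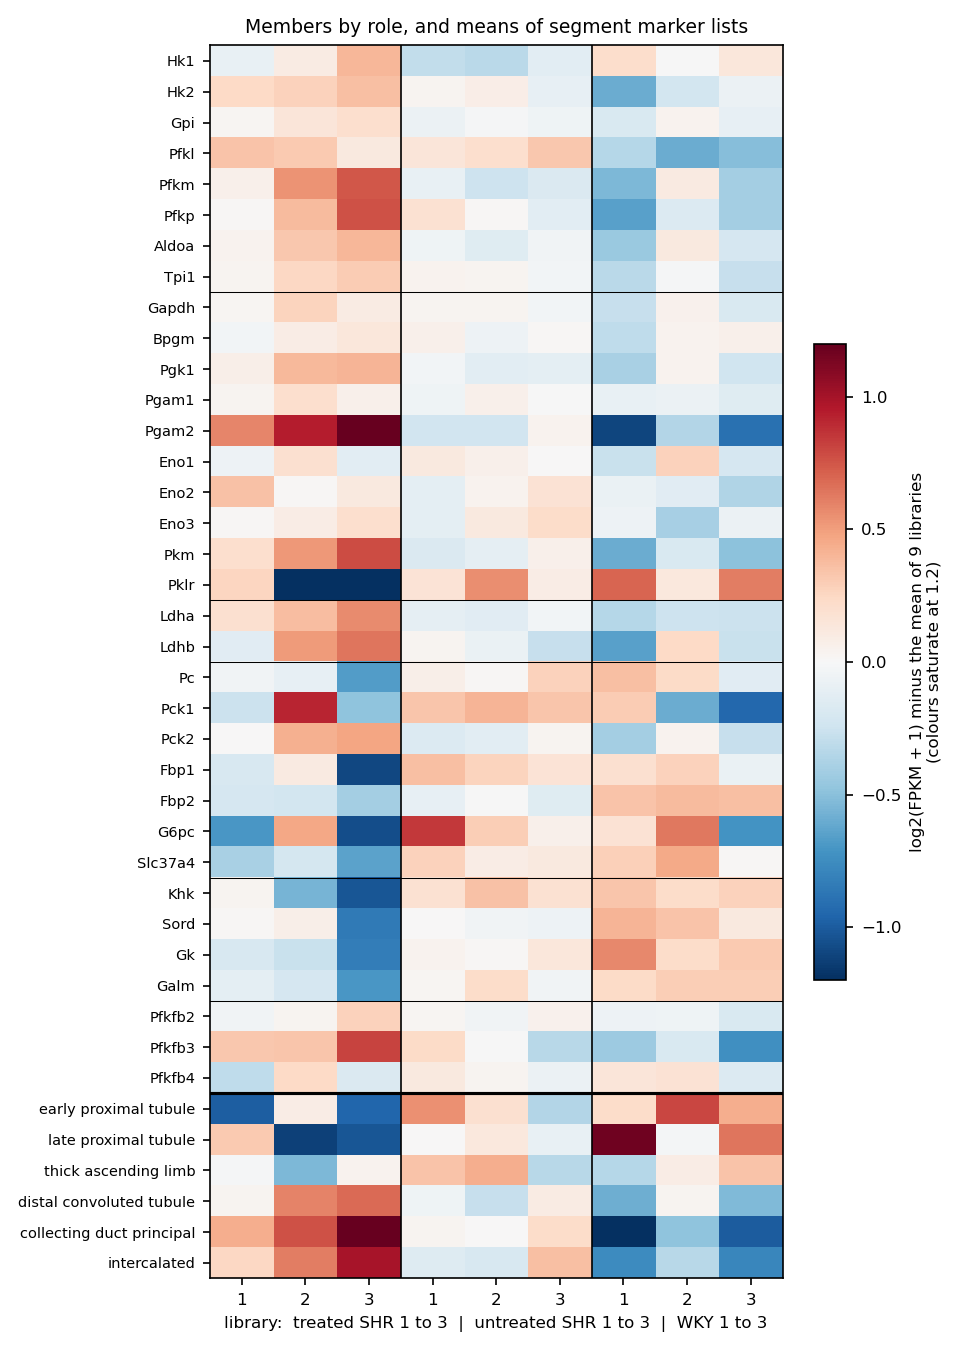
Log2 of FPKM + 1 minus the mean of the 9 libraries for the 34 tested genes (upper rows, by role) and for the means of 6 segment marker lists (lower rows), with libraries of treated SHR, untreated SHR and WKY left to right, and colours saturating at 1.2. The Pgam2, Pkm, Ldha and collecting duct rows are highest in treated libraries 2 and 3, and the Pklr row is lowest in the same libraries.

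Other enzymes and carriers of sugar metabolism were read from a list of 47 genes, of which 45 were tested. In treated SHR against WKY 8 rose (17.8%, beside 16.8% of all genes) and 2 fell (4.44%, beside 6.09% of all genes), shares near those of all genes, with a median log2 change of 0.06 beside 0.11 over all genes. Galt, of galactose metabolism, rose by 0.69 (adjusted p = 0.0179, limma), and Pdk1, the kinase that inactivates pyruvate dehydrogenase, rose by 0.66 (adjusted p = 0.0186). Tigar, a bisphosphatase that lowers fructose bisphosphate, rose by 0.65 (adjusted p = 0.0159), and Tkt and Pgls, of the pentose phosphate path, rose by 0.36 (adjusted p = 0.044) and 0.29 (adjusted p = 0.0148). Got1, Got2 and Pdhx were the others that rose. Taldo1, also of the pentose phosphate path, fell by 0.38 (adjusted p = 0.0462), and Hkdc1, a hexokinase-like enzyme, fell by 0.86 (adjusted p = 0.0295). In untreated SHR against WKY only Pgls passed, at a log2 change of 0.33 (adjusted p = 0.0211), and in treated against untreated SHR 0 of 45 passed.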

How the data were processed

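Kidney RNA-seq values of 9 libraries, 3 per group, were analysed as deposited. Per the labels' protocols, single-end reads of 50 bases came from a BGISEQ-500. HISAT2 2.0.4, Bowtie2 2.2.5 and build Rnor_6.0 are named in the submitters' processing notes, with no role stated for either tool. The deposited values are FPKM computed by the authors, rounded to 2 decimals. The program that made them is not given in the sources used here, and read depth is unknown. Scaling within a library lets abundant transcripts shift all others.

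Values were taken as log2(FPKM + 1). Genes with FPKM of at least 1 in at least 3 libraries, 13127 in all, were fitted in limma 3.58.1 (R 4.3.3) as group means of all 9 libraries with an intensity trend and 6 residual degrees of freedom. Tests were two-sided, with Benjamini-Hochberg adjustment over all genes, and called at 0.05. The fit was tried on simulated data of independent genes, which leave out shifts shared by many genes of a library. Figures used matplotlib 3.10.9.

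Per-library values are given for every member called in any comparison, called when a library is left out, or central to a step, and the rest by mean or range. All 37 gene IDs matched RefSeq, 36 with the same symbol (G6pc is G6pc1 there). The members and lists were chosen with earlier results of these data known. Alternatives were another pseudocount, other filters, scalings and variance models, the libraries of 1 contrast alone, a replicate block, a proximal tubule covariate and each library left out. Some genes of the wider list are not reported here by name.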

Additional observations from a re-analysis of the deposited data

How the results depend on the processing

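With the proximal tubule covariate, 98 genes were called in untreated SHR against WKY and 15 in treated SHR against WKY, with 0 members called in any comparison. Galm in treated SHR against WKY then had a log2 change of 0.016, the only called value to change sign. With only the libraries of the contrast, treated SHR against WKY gave 1026 genes (7.82%) and 6 of 34 members. Without a filter, members called in untreated SHR against WKY numbered 2 of 37, beside 1.99% of 19028 genes. They numbered 2 of 34 under quantile normalization (3.1% of all genes) and without the intensity trend (2.78%). Fbp2, which passed the main filter only through its WKY values, was the added gene in each. The replicate block gave 1 gene (0.00762%) and 0 of 34 members in treated against untreated SHR. In untreated SHR against WKY it gave 282 genes (2.15%) and 1 member. In treated SHR against WKY it gave 2700 genes (20.6%) and 16 members. Whether the numbers pair libraries was not settled. Same-number pairs correlated at -0.328 to 0.456, and 3 of 9 exceeded 0.1. Different-number pairs correlated at -0.532 to 0.327, and 9 of 18 exceeded 0.1. Deviations of 3 libraries from their own mean are not independent, so these values cannot decide it. Leaving out each library in turn gave 0 to 830 genes and 0 to 7 members for treated against untreated SHR (above 0 only without treated library 1), 593 to 4791 genes and 5 to 20 members for treated SHR against WKY, and 167 to 626 genes and 1 member for untreated SHR against WKY. Of calls in untreated SHR against WKY, 49.6% were higher under quantile normalization and 52.5% under median-of-ratios scaling, against 62.1% as deposited. Of 1824 member values under all alternatives, 101 lost a call, 15 gained one and 60 changed sign with no call. The covariate's groups do not overlap and causes were not tested. With 3 libraries per group and no read depth, small changes and low values such as those of Hk2 and Fbp2 are weakly resolved.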

Other observations

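Among 13 regulators of sugar metabolism, 1 rose and 1 fell in treated SHR against WKY (15.4%, beside 22.9% of all genes), and 0 passed in the other comparisons (limma, Benjamini-Hochberg adjustment). Hif1a, the oxygen-regulated subunit of the hypoxia factor, had 29.7, 28.9 and 35.8 FPKM in treated SHR, 29.7, 26.4 and 29.4 FPKM in untreated SHR and 24.4, 24.6 and 25.55 FPKM in WKY. All SHR libraries lay above all WKY libraries, and the log2 change of treated SHR against WKY was 0.32 (SE 0.09, adjusted p = 0.0378). Mlxipl, which encodes the carbohydrate-responsive factor ChREBP, had 28.5, 17.0 and 13.1 FPKM in treated SHR, 31.7, 33.15 and 26.6 FPKM in untreated SHR and 41.25, 28.3 and 31.8 FPKM in WKY. Treated libraries 2 and 3 lay below all other libraries, and the log2 change of treated SHR against WKY was -0.81 (SE 0.25, adjusted p = 0.0476). Tkfc, the triokinase of fructose breakdown, showed the same order of treated libraries, at 150, 81.4 and 60.7 FPKM in treated SHR, 131, 155 and 139 FPKM in untreated SHR and 167, 143 and 168 FPKM in WKY. Its change of treated SHR against WKY was -0.80 with an adjusted p of 0.0631.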
